A study of Mus musculus with 7 samples.

Results

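Open chromatin was examined at 10 genes of the neuronal cytoskeleton and growth cone: Dcx, Dclk1, Dclk2, Tubb3, Map2, Mapt, Map1b, Stmn1, Stmn2 and Gap43. They were chosen by name from 21883 protein-coding genes on chromosomes 1 to 19, X and Y, and all 10 were found in the gene table. The locus of a gene was its span and 50 kb on either side. The assay was ATAC-seq, which reads accessible chromatin from where a transposase inserts sequencing adapters, and the cells were neural progenitors of the embryonic dorsal telencephalon, CD-1 strain, sorted for the surface carbohydrate CD15. The groups were 3 wild-type libraries and 4 libraries of the genotype L3mbtl3 -/-, with E14.5 in their titles and embryonic day 14 as their age label. The growth protocol also mentions heterozygous cells, but no library is labelled so, and the libraries were grouped by their genotype label alone. No promoter, Cre or other tissue restriction of the L3mbtl3 deletion is named in the labels, and the cells of every library, control included, were sorted in the same way. The labels do not say whether a library came from 1 embryo or from pooled embryos, so the p-values below measure the spread between these libraries. An accessibility peak cannot tell a locus open in more cells from a locus more open in each cell.

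Microtubules are polymers of tubulin that give a young neuron its leading process, axon and dendrites. Doublecortin and the doublecortin-like kinases bind and stabilise them, MAP2, tau and MAP1B bind along them in dendrites and axons, and stathmins bind free tubulin and promote disassembly. GAP43 is a membrane protein of the growth cone, the motile tip of a growing axon. In the developing cortex most of these genes are switched on as progenitors become neurons.

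Each library has 1 deposited list of broad peaks, and the lists held 3366 to 17362 peaks. Knockout library 4 had the longest list and knockout library 3 the shortest. The sequencing depth behind the lists is unknown. Of 15 markers of radial glia and neural progenitors, 14 had a peak in their locus and 10 had one in at least 4 libraries, with summed peaks of 13 to 23 in wild-type and 12 to 48 in knockout libraries. Hes1 was the progenitor marker with no peak in any library. All 10 markers of postmitotic neurons outside the studied genes had a peak in some library, and 6 had one in at least 4 libraries. Their summed peaks were 10 to 11 in wild-type and 10 to 26 in knockout libraries. Of 4 markers of intermediate progenitors 3 had a peak, with sums of 1 to 3 in wild-type and 0 to 6 in knockout libraries and Eomes at 0. Of 8 markers of the ventral telencephalon and interneurons 4 had a peak, with sums of 2 to 4 and 3 to 6 and Dlx5, Dlx6, Gad1 and Gsx2 at 0. Markers from outside the neural lineage also had peaks. Of these, 5 of 6 microglial and blood markers had one in some library (sums of 2 to 3 in wild-type and 0 to 5 in knockout, Csf1r at 0), as had 3 of 4 endothelial and mural markers (0 to 1 and 0 to 3, Pdgfrb at 0) and 2 of 4 meningeal markers (1 and 1 to 3, Col1a1 and Foxc1 at 0). Of 5 oligodendrocyte and astrocyte markers 3 had a peak (1 to 2 and 0 to 2, Mbp and Gfap at 0). A peak in at least 4 libraries was found for 1 intermediate progenitor, 1 ventral or interneuron, 1 meningeal and 1 oligodendrocyte or astrocyte marker. It was found for 0 microglial and blood and 0 endothelial and mural markers. Among all protein-coding loci, 69.2% had a peak in some library, and the share with one in at least 4 libraries is not given here. A peak at a marker locus therefore does not by itself show that a cell type was present. The sums are raw counts, not scaled to the length of each list. A peak in a locus is no measure of expression, and the part of these cell types in the results below was not tested.

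The 10 loci held 87 peaks in all libraries together, which merged into 44 regions. Peaks were concentrated at 6 of the 10 genes. Dclk1 held 21, Map2 18, Dclk2 13, Gap43 11, Map1b 10 and Dcx 9, whereas Stmn1 held 2 and Tubb3, Mapt and Stmn2 held 1 each. Per length of locus the same 6 genes ranged from 0.70 peaks per 100 kb and library at Map2 to 0.818 at Gap43, which placed them between the 83.8 and 87.8 percentiles of all protein-coding loci. The other 4 ranged from 0.0705 at Mapt to 0.271 at Stmn1, between the 31.8 and 57.8 percentiles. Loci with no peak in any library all stand at the 30.8 percentile, so Mapt, at 31.8, and Stmn2, at 33.7, lay just above that floor. The median density was 0.712 over the 10 loci and 0.209 over all 21883 loci. All of these are densities of called peaks, without any weight for their height.

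**Figure D1:**
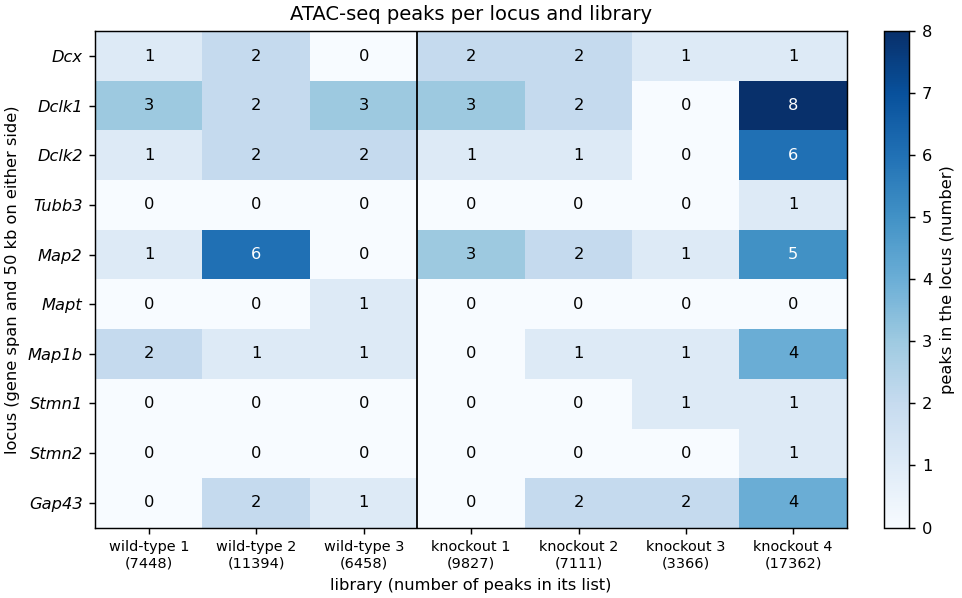
Number of ATAC-seq peaks in each of the 10 loci (rows, gene span and 50 kb on either side) in each library (columns, with the length of its peak list). The line divides 3 wild-type from 4 knockout libraries. Dclk1, Dclk2 and Map2 hold most peaks, and Tubb3, Mapt and Stmn2 hold 1 peak each in a lone library.

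Sequences at annotated starts are shown for 2 kinds of gene, because Dclk1 was the only gene among the 10 with a start peak in more than 2 libraries, while Tubb3, Map2 and Map1b, shown for contrast, had no start peak in any library, like Dclk2. RefSeq windows on GRCm38.p6, from 250 bases before to 50 bases after a start, were found for 6 of the 10 genes, Dcx, Dclk1, Dclk2, Tubb3, Map2 and Map1b. Dclk1 has 2 annotated starts in that table, an upstream start (window chr3:55242114-55242413, plus strand) and an internal start (window chr3:55461478-55461777, plus strand). In the Dclk1 sequences, written 5′ to 3′, capitals mark bases that lay under a peak in at least 1 library.
Dclk1 upstream start: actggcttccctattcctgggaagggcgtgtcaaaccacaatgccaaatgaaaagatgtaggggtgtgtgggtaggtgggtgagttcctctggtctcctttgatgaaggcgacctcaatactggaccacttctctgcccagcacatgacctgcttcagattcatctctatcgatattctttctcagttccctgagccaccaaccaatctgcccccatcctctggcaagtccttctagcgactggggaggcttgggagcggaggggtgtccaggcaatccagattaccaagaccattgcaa
Dclk1 internal start: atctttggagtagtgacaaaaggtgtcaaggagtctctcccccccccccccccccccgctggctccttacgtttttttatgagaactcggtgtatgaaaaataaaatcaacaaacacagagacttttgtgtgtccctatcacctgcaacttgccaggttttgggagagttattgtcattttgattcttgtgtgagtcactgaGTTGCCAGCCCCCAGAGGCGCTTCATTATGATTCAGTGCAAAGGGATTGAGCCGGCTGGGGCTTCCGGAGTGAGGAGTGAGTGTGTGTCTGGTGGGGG
The last 98 bases of the internal window lay under peaks. The upstream window held none, since the peaks there began further downstream.

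The windows of the 3 contrasting genes are those of Tubb3 (chr8:123411303-123411602, plus strand), Map2 (chr1:66175079-66175378, plus strand) and Map1b (chr13:99516553-99516852, minus strand), and here capitals mark GGGCGG, the core of the GC box, or its reverse complement.
Tubb3 start: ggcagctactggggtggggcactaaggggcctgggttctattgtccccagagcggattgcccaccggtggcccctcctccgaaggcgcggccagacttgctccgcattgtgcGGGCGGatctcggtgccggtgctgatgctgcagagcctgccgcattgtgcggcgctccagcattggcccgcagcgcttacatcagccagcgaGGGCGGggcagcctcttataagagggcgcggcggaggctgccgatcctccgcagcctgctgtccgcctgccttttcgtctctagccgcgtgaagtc
Map2 start: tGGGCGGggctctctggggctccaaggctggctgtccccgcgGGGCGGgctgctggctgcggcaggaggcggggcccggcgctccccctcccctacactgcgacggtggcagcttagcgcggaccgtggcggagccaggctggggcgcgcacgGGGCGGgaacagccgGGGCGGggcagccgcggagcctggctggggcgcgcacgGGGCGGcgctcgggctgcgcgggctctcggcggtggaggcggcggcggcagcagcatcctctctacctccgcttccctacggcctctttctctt
Map1b start: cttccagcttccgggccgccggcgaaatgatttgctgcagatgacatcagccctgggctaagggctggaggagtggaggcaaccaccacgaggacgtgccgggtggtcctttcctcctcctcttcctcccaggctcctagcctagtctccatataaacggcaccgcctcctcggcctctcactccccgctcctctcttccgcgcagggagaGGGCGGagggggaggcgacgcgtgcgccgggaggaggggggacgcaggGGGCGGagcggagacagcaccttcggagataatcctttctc
The windows differed in base composition, and low and high shares of G and C both occurred among windows without a peak. G and C made up 67.3% of the Tubb3, 77.7% of the Map2 and 65.7% of the Map1b window, and 61.3% of the Dclk2 window, which also had no peak. They made up 52.7% of the upstream and 50.3% of the internal Dclk1 window and 44.7% and 43.0% of the overlapping windows of the 2 Dcx starts, which no peak touched. The median over 21005 RefSeq windows of protein-coding genes was 56.7%. GGGCGG, searched on both strands, occurred 2 times at Tubb3, 5 times at Map2, 2 times at Map1b and 3 times at Dclk2, with overlapping matches counted, and was not found in these letters in the windows of Dclk1 and Dcx. It was present in 46.6% of all windows. The E-box CAGATG, a sequence bound by proneural basic helix-loop-helix factors, occurred once, at Map1b, and in 3052 of all 21005 windows, CAGCTG in none of these windows and in 15.7% of all, and TATAAA at Map1b and at the Dcx starts and in 12.5% of all. The motifs were chosen after the sequences were seen, and a match in these letters is a description of the sequence and not a bound site.

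Dclk1 (chromosome 3, 55242303 to 55539068) encodes a doublecortin domain joined to a serine/threonine kinase domain. Its locus held 3, 2 and 3 peaks in wild-type libraries 1 to 3 and 3, 2, 0 and 8 in knockout libraries 1 to 4. Knockout library 3, with the shortest list, lay below all wild-type values and knockout library 4, with the longest, above them. Knockout libraries 1 and 2 lay within the wild-type values. The means were 2.67 ± 0.577 (SD, n = 3) in wild-type and 3.25 ± 3.40 (SD, n = 4) in knockout libraries, a difference of 0.583 peaks (two-sided exact permutation p = 0.971, adjusted p over all 15150 loci with a peak = 1). Without knockout library 4 the difference was −1.

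At the internal start of Dclk1, 5 of 7 libraries had a peak, 2 of 3 wild-type and 3 of 4 knockout (region 55461680 to 55461954). In wild-type libraries 1 and 2 the peak began 13 and 23 bases downstream of the annotated start, and in knockout library 1 it began 38 bases downstream. In knockout libraries 2 and 4 it began 48 and 45 bases upstream, so that only these libraries had a peak over the start base itself. All 5 peaks shared 91 bp.

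At the upstream start, 4 of 7 libraries had a peak, 2 of 3 wild-type and 2 of 4 knockout (region 55242507 to 55242685). These peaks began 143 to 199 bases downstream of the start, in wild-type libraries 1 and 3 and knockout libraries 2 and 4. At least 1 of the Dclk1 starts thus had a peak within 1 kb in 6 of 7 libraries, the exception being knockout library 3, the shortest list. The share of libraries was 3 of 3 wild-type and 3 of 4 knockout (Fisher's exact p = 1).

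Dclk1 also held a region inside the gene, 41898 bp from the upstream start (55284262 to 55284607), with peaks in all 3 wild-type libraries and in knockout libraries 1 and 4 (Fisher's exact p = 0.429, adjusted p = 1). In knockout library 4 its peak had the strongest rank of all 87, the 93.9 percentile of −log10 q within its list. A smaller region 6296 bp inside the upstream start (55248660 to 55248828) was called in knockout libraries 1 and 4 only, and 1 near the end of the gene (55524945 to 55525109) in wild-type library 3 and knockout library 4. The remaining 3 regions of the locus were called in knockout library 4 alone.

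**Figure D2:**
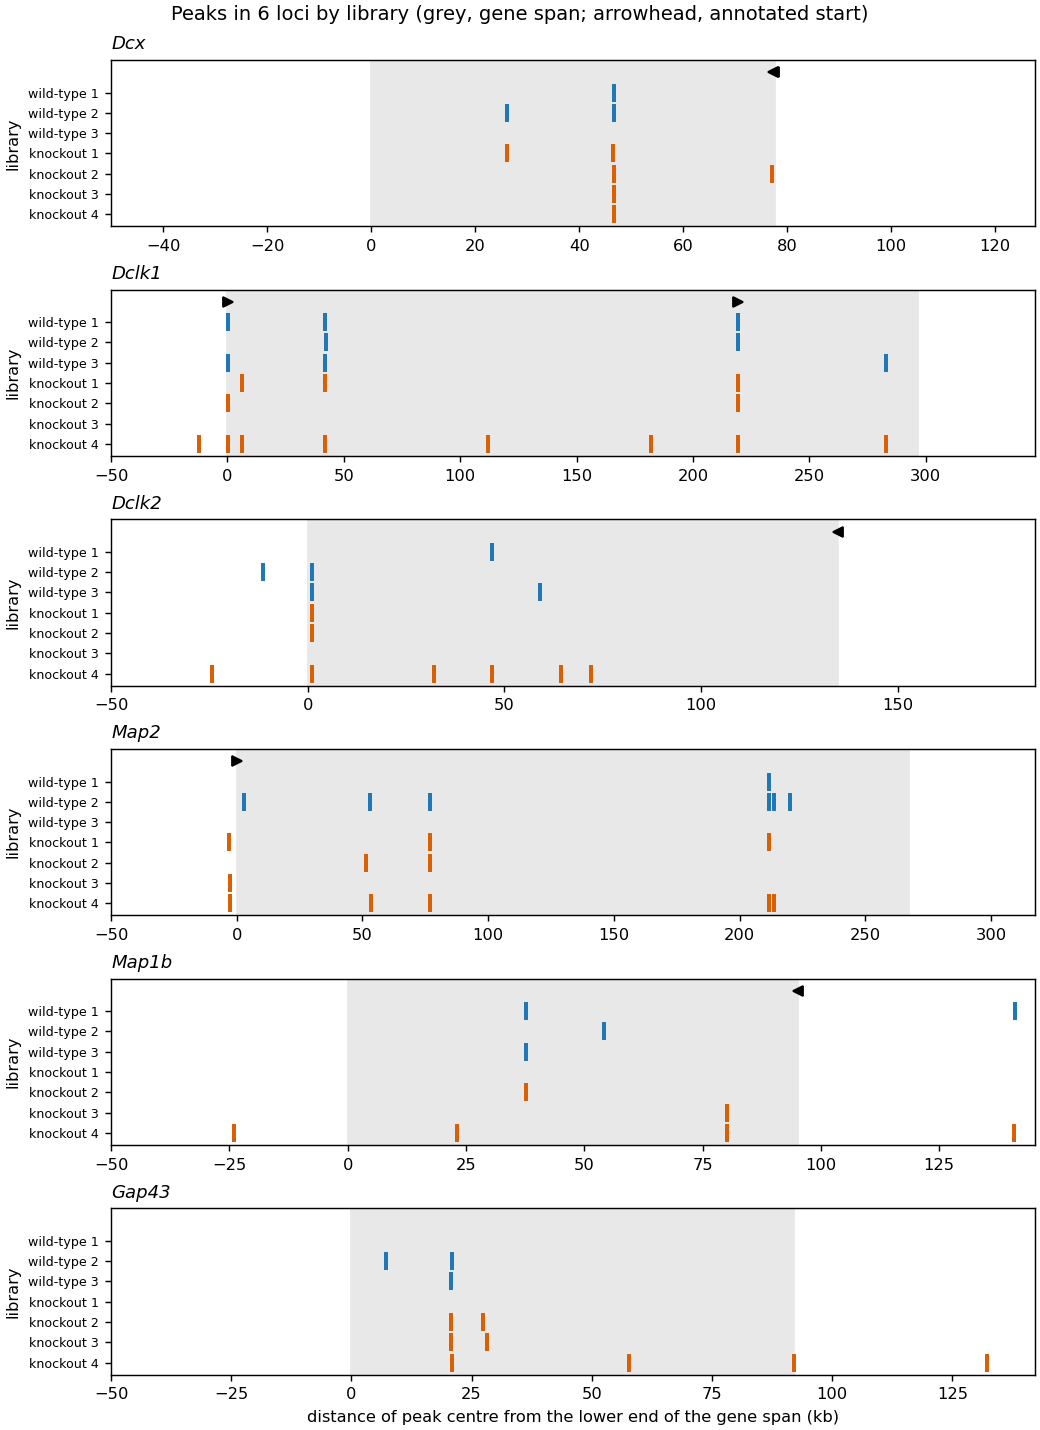
Position of every peak (ticks, peak centres) in 6 loci, by library, as distance in kb from the lower end of the gene span, with wild-type in blue and knockout in orange. Grey marks the gene span and arrowheads the annotated starts, which the table gives for 5 of these genes. Most ticks lie inside the grey spans and away from the arrowheads. Dclk1 shows columns of ticks at its starts, and 3 knockout ticks lie just before the Map2 start.

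Dclk2 (chromosome 3, 86786150 to 86920952), the second doublecortin-like kinase, held 1, 2 and 2 peaks in wild-type and 1, 1, 0 and 6 in knockout libraries. The means were 1.67 ± 0.577 (SD, n = 3) and 2 ± 2.71 (SD, n = 4, two-sided exact permutation p = 1), and without knockout library 4 the difference of 0.333 became −1. The region seen in most libraries (86787080 to 86787268) had calls from wild-type libraries 2 and 3 and from knockout libraries 1, 2 and 4. It lay 930 bp inside the lower end of the span, which for this minus-strand gene is the end opposite to the start, 133616 bp away. The start had no peak within 1 kb in any library. A region in the gene (86833040 to 86833173) was shared by wild-type library 1 and knockout library 4, and the other 6 had 1 library each. Both peaks in the flanks of Dclk2, from wild-type library 2 and knockout library 4, lay within the neighbouring gene Lrba.

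Dcx (chromosome X, 143855842 to 143933396) encodes doublecortin, a marker of migrating neuroblasts. Its locus held 1, 2 and 0 peaks in wild-type and 2, 2, 1 and 1 in knockout libraries, all of them inside the gene. The groups overlapped, with means of 1 ± 1 (SD, n = 3) and 1.5 ± 0.577 (SD, n = 4, two-sided exact permutation p = 0.657, adjusted p = 1). The difference of 0.5 was 1 without wild-type library 2 and 0 without wild-type library 3. Dcx is X-linked, and the sex of the embryos is not given, so its part in these values was not tested.

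The region of the 10 loci called in most libraries lay inside Dcx (143902301 to 143902620), 30504 bp from the nearer annotated start. All 4 knockout libraries had it, and wild-type library 3 was the only one without (Fisher's exact p = 0.429, adjusted p over all regions = 1). The deposited fold enrichments were 4.69 and 5.14 in wild-type libraries 1 and 2 and 3.83, 5.63, 4.37 and 5.43 in knockout libraries 1 to 4, each relative to its own library's background. Its peaks ranked from the 1.84 percentile of −log10 q in knockout library 1 to the 80.5 percentile in knockout library 4, and shared 76 bp. With lists cut to the length of the shortest, or with 50% coverage demanded, the region was left in 2 knockout libraries and no wild-type library, while the Gap43 region described below kept all 5 libraries at 50% coverage and 2 knockout libraries with equal lists. A further region (143881904 to 143882072) was called in wild-type library 2 and knockout library 1. Near the start itself only knockout library 2 had a peak, 199 bases downstream of the nearer start.

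Map2 (chromosome 1, 66175202 to 66442583) encodes the main microtubule-associated protein of dendrites. Its locus held 1, 6 and 0 peaks in wild-type and 3, 2, 1 and 5 in knockout libraries. The wild-type values enclosed all knockout values, with means of 2.33 ± 3.21 (SD, n = 3) and 2.75 ± 1.71 (SD, n = 4, two-sided exact permutation p = 0.857, adjusted p = 1). The difference of 0.417 was −0.333 without knockout library 4, −0.25 without wild-type library 1 and −0.75 without wild-type library 3. Inside the gene, a region 76514 bp from the start (66251843 to 66252252) had peaks in wild-type library 2 and knockout libraries 1, 2 and 4, and another 211469 bp from the start (66386798 to 66387009) in wild-type libraries 1 and 2 and knockout libraries 1 and 4. The regions 66228318 to 66228634 and 66388698 to 66388817 were shared by wild-type library 2 and knockout library 4.

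A region 2856 bp before the Map2 start (66172194 to 66172473), named after its values were seen, had the smallest p of the 44 regions. Peaks there came from knockout libraries 1, 3 and 4 and from 0 of 3 wild-type libraries (Fisher's exact p = 0.143, adjusted p = 1). Its 3 peaks overlapped each other by 31 bp. Among the 13227 regions called in at least 2 libraries of the whole series, 1.98% had this pattern of 3 of 4 knockout and no wild-type library. With lists cut to the length of the shortest, it was left in 1 knockout library, and a demand for 50% coverage of the region left 2.

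Map1b (chromosome 13, 99421464 to 99516602) encodes a microtubule-associated protein that appears early in axon growth. Its locus held 2, 1 and 1 peaks in wild-type and 0, 1, 1 and 4 in knockout libraries, with means of 1.33 ± 0.577 (SD, n = 3) and 1.5 ± 1.73 (SD, n = 4, two-sided exact permutation p = 1). The groups overlapped, and the difference of 0.167 was −0.667 without knockout library 4. A region in the middle of the gene (99459033 to 99459221) was called in wild-type libraries 1 and 3 and knockout library 2, and a region 14944 bp inside the start (99501522 to 99501658) in knockout libraries 3 and 4. Beyond the start, 45395 bp away, wild-type library 1 and knockout library 4 shared a region (99561997 to 99562458).

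Mapt (chromosome 11, 104229409 to 104332090) encodes tau, the axonal microtubule-associated protein. No library had a peak inside the gene. The only peak of its locus, in wild-type library 3, lay 33327 bp below the span (104195998 to 104196082) and 4832 bp from the neighbouring gene Sppl2c. It ranked at the 89.4 percentile of −log10 q in its list. The means were 0.333 ± 0.577 (SD, n = 3) and 0 in 4 knockout libraries (two-sided exact permutation p = 0.429), which made Mapt the only gene of the 10 with a higher wild-type mean.

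Gap43 (chromosome 16, 42248552 to 42340651) held 0, 2 and 1 peaks in wild-type and 0, 2, 2 and 4 in knockout libraries. The means were 1 ± 1 (SD, n = 3) and 2 ± 1.63 (SD, n = 4), and this difference of 1 peak, the largest of the 10, was within the spread of either genotype (two-sided exact permutation p = 0.457, adjusted p = 1). Without knockout library 4 it was 0.333. A region 20696 bp above the lower end of the span (42269248 to 42269492) had peaks in wild-type libraries 2 and 3 and knockout libraries 2, 3 and 4, and these 5 peaks shared 157 bp, the longest core among the regions of the 10 loci called in at least 2 libraries. The other 6 regions were each called in 1 library, 3 of them in knockout library 4, including a peak over the upper end of the span (42340568 to 42340708).

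Stmn1 (chromosome 4, 134468320 to 134473843), the stathmin of dividing and early neural cells, had a peak over the lower end of its span in knockout libraries 3 and 4 and in no other library (region 134468280 to 134468403). Its counts were therefore 0, 0 and 0 in wild-type and 0, 0, 1 and 1 in knockout libraries (two-sided exact permutation p = 0.429, adjusted p = 1). Knockout libraries 3 and 4 have the shortest and the longest list. Stmn2 (chromosome 3, 8509527 to 8561604), the neuronal stathmin also known as SCG10, had a peak inside the gene in knockout library 4 (8547642 to 8547735) and none elsewhere. Tubb3 (chromosome 8, 123411553 to 123422015), the neuron-specific beta-tubulin, had a peak in knockout library 4 alone, 587 bp beyond the end opposite to its start (123422602 to 123422728). These Stmn2 and Tubb3 peaks both ranked at the 5.54 percentile of −log10 q in their list.

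Of the 87 peaks, 75 (86.2%) lay inside the gene spans, 12 in the flanks, and 13 were within 1 kb of a start, or of either end for genes without a start in the table. Inside the spans the density was 0.944 peaks per 100 kb and library against 0.171 in the flanks. In each of the 7 libraries the spans had the higher density, from 0.441 against 0.1 in knockout library 3 to 2.12 against 0.7 in knockout library 4, and knockout library 2 had no flank peak. Per length, 8 of the 10 genes had more peaks inside than in the flanks, the exceptions being Tubb3 and Mapt. For all protein-coding loci the densities were 0.422 and 0.324, where flanks often hold other genes. The genes described here are long, with a median span of 93.6 kb against 17.2 kb. Among all 4388 genes of 50 to 300 kb, a range chosen after the values were seen, the densities were 0.365 and 0.364, and for the 8 of the 10 genes in that range 0.932 and 0.196. These are descriptions, and no test was made of the list against other genes.

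**Figure D3:**
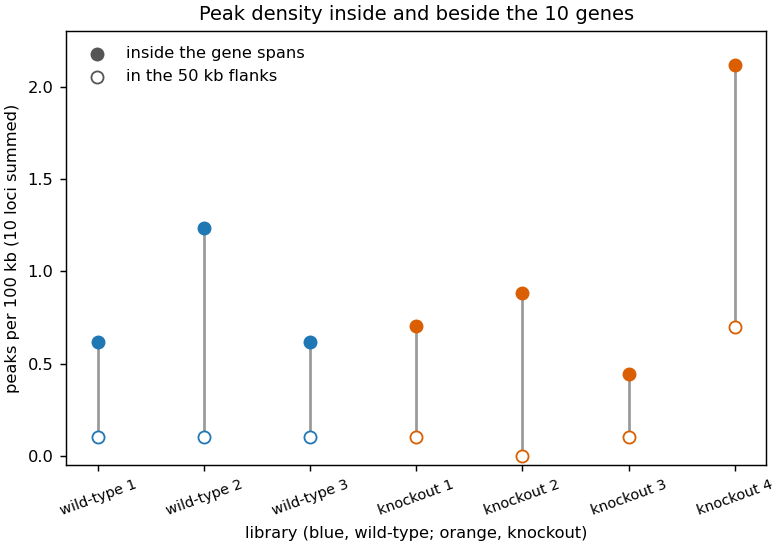
Peaks per 100 kb summed over the 10 loci in each library, inside the gene spans (filled circles) and in the 50 kb flanks (open circles), with wild-type in blue and knockout in orange. In every library the filled circle lies above the open one.

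A peak near a start, or near a span end for genes without a start in the table, was found in at least 1 library for 4 of the 10 genes. This compares with 24.2% of all protein-coding genes. Stmn1 and Gap43 were counted through a span end. A start was in the table for 6 of the 10 genes and for 17491 of all 21883, so these shares are not like for like. Dcx and Gap43 had the call in 1 library each and Stmn1 in 2. In 4 or more libraries it was found for Dclk1 alone, against 6.76% of all genes. Dclk1 accounted for 9 of the 13 peaks near a start or such a span end. No gene of the 10 had a start called in all 7 libraries, as 253 of all genes did. Of the 10, only Dcx, Dclk1, Stmn1 and Gap43 had such a call and so entered Fisher's exact test. None of these 4 passed at an unadjusted p under 0.05, against 0.17% of the 5287 genes with a call, and none passed after Benjamini-Hochberg adjustment.

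The peaks at these loci were of middle to low rank. The median percentile of −log10 q within the list was 42.6, below the middle of the list, and 2 of the 87, both in knockout library 4 at Dclk1, were above the 90 percentile of their list. The deposited fold enrichment ran from 3.34 to 6.49 with a median of 4.40, against 4.59 for all peaks. Of the 44 regions, 25 (56.8%) were called in 1 library, against 48.4% of all 25623 regions, and 14 of those 25 in knockout library 4, against 6474 of 12396 over the whole series. Regions called in all 7 libraries, 5.06% of the series, were not found at these genes, where the highest number was 6.

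Of the 19 regions called in at least 2 libraries, 17 were in a gene span, where spans made up 53.2% of the length of the 10 loci. Knockout library 4, with the longest list of 17362 peaks, called 17 of the 19. Knockout library 3, with the shortest list of 3366 peaks, called 5. The corresponding shares over all regions of the series are not given here, so these counts are not read as a trait of the 10 loci. The share of knockout libraries with a call was above the share of wild-type libraries in 9 of the 19 and below it in 10. Over all 13227 regions called in at least 2 libraries these numbers were 5334 and 6597. Equal numbers of calls count towards wild-type here, because 1 of 3 is a larger share than 1 of 4. Among the 10, only the regions at Dclk1 (55284262 to 55284607, 3 and 2 calls) and Map1b (99459033 to 99459221, 2 and 1) had more wild-type than knockout calls. No region among the 19 split the genotypes fully, with calls from all knockout and no wild-type libraries or the reverse, patterns that 0.212% (all knockout) and 0.257% (all wild-type) of the regions called in at least 2 libraries had. Regions called in no wild-type library numbered 4 of 19, against 11.4%, and in no knockout library 0 of 19, against 2.93%. All 4 were called in knockout library 4, which has the longest list, and only the region before Map2 was called in at least 2 libraries without that library. By Fisher's exact test 0 of the 44 regions had an unadjusted p under 0.05, against 0.242% of all regions, and every adjusted p was 1.

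**Figure D4:**
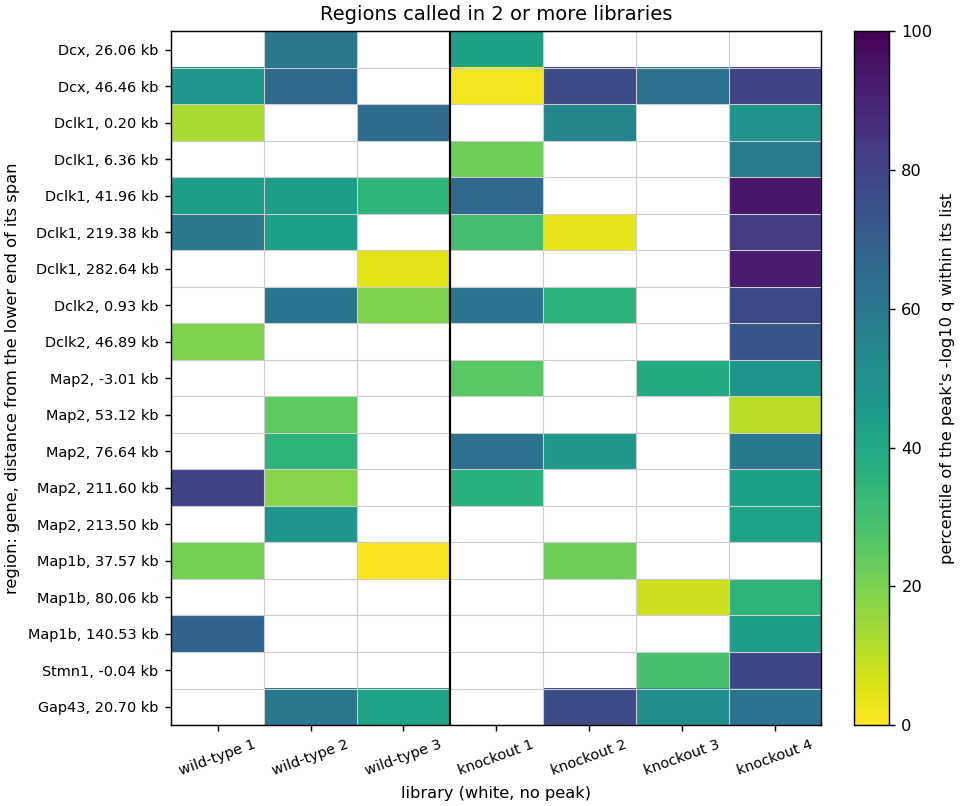
The 19 regions called in at least 2 libraries (rows, gene and distance of the region's lower end from the lower end of the gene span) by library (columns). Colour gives the percentile of the peak's −log10 q within its list and white means no peak. The region inside Dcx fills 6 of 7 columns, and no row fills all columns of 1 genotype while leaving the other empty.

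The last comparison asks whether these loci held more or fewer peaks with L3mbtl3 deleted. The sum over the 10 loci was 8, 15 and 8 peaks in wild-type and 9, 10, 6 and 31 in knockout libraries. Knockout library 4 stood apart, and the other 3 knockout libraries lay within 2 peaks of the wild-type range of 8 to 15. The means were 10.3 ± 4.04 (SD, n = 3) and 14 ± 11.5 (SD, n = 4), or 8.33 ± 2.08 (SD, n = 3) without knockout library 4, which turned the difference from 3.67 to −2. Knockout library 4 gave 35.6% of the peaks at these loci and 27.6% of all listed peaks. Scaled to list length, the sums were 10.7, 13.2 and 12.4 peaks per 10000 listed peaks in wild-type and 9.16, 14.1, 17.8 and 17.9 in knockout libraries, ranges that overlap. The scaled means were 12.1 ± 1.24 (SD, n = 3) and 14.7 ± 4.12 (SD, n = 4), a difference of 2.63, which was 1.58 without knockout library 4.

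**Figure D5:**
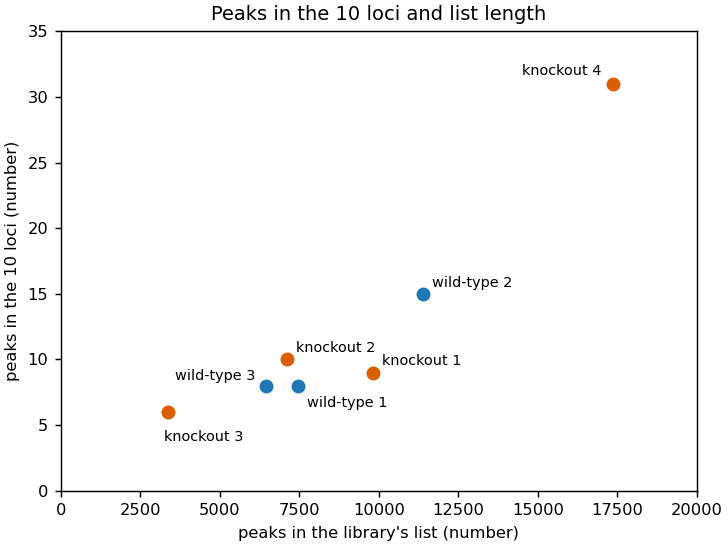
Peaks in the 10 loci (vertical axis) against the number of peaks in the library's list (horizontal axis), 1 point per library, wild-type in blue and knockout in orange. Knockout library 4 has both the longest list, 17362, and the highest sum, 31.

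Gene by gene, the mean was higher in knockout at 9 of the 10 loci and in wild-type at Mapt, where 58.6% and 37.8% of all 15150 loci with a peak leaned to knockout and wild-type. The median difference was 0.375 peaks over the 10 loci and 0.167 over all loci with a peak. Without knockout library 4 the counts were 3 higher in knockout and 5 in wild-type, against 2706 and 7201 of the 12371 loci that then had a peak. Per 10000 listed peaks they were 6 and 4, against 8069 and 7081 of 15150. At none of the 10 loci were the genotypes free of overlap, which held for 0.132% of loci with knockout higher and 0.211% with wild-type higher. The exact permutation p values ran from 0.429 to 1, 0 of the 10 had an unadjusted p under 0.05 against 0.33% of all loci, and every adjusted p was 1. With 35 splits the smallest possible p is 0.0286, and differences smaller than the spread between these libraries were not detectable. An adjusted p under 0.05 would need a large part of all 15150 loci at that smallest p, and 50 had p under 0.05. Even a locus with full separation of the genotypes could therefore not pass, and the adjusted p-values decide nothing here. Fisher's exact test has the same smallest p, so this limit holds for regions and starts too.

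A wider list of 73 genes of microtubules, neurofilaments and growth cones gave the setting. Of its loci 61 (83.6%) had a peak, against 69.2% of all protein-coding loci. The mean was higher in knockout at 41, higher in wild-type at 15 and equal at 5. Over all 15150 loci with a peak these numbers were 8874, 5723 and 553. In the exact permutation test 0 of the wider list passed at an adjusted or an unadjusted p under 0.05, where 0.33% of all loci had an unadjusted p under 0.05. Without knockout library 4 the counts were 12 higher in knockout and 25 in wild-type, of 49 loci that then had a peak. Over all loci they were 2706 and 7201 of 12371. The most peaks were at Nrcam, which encodes an axonal cell adhesion molecule, with 2, 6 and 5 in wild-type and 5, 5, 3 and 12 in knockout libraries (two-sided exact permutation p = 0.686). It was followed by the loci of the microtubule end-binding gene Mapre2 with 20, of Map9 with 14 and of Map7 with 11 peaks in all.

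With higher knockout means, Nrcam was followed by the microtubule-associated protein gene Map1a and the end-binding gene Mapre1, and then by Map1s, which tied at a difference of 0.75 with Map7d1 and Mapre3. Map1a, Map1s and Mapre1 had no wild-type peak and means of 1 ± 1.41, 0.75 ± 0.957 and 1 ± 1.41 in knockout libraries (SD, n = 4, exact permutation p = 0.429 each), with knockout library 4 highest at all 3. With higher wild-type means, the beta-tubulin gene Tubb2b held 1, 2 and 2 against 0, 1, 0 and 2 peaks (exact permutation p = 0.257) and the neurofilament gene Nefm 1 in every wild-type library against 0, 0, 0 and 1 (exact permutation p = 0.143). The differences were −0.75 at Map7 and −0.667 at Clasp2, a microtubule plus-end gene, both with an exact permutation p of 0.514. Map6, with 1, 1 and 0 peaks in wild-type and 0 in every knockout library, tied with Clasp2 (exact permutation p = 0.143). The genotypes shared values at all of these loci. Loci of 12 genes of the list, among them the neurofilament genes Nefh and Ina, had no peak in any library.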

How the data were processed

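ATAC-seq libraries were made with a Nextera kit from 3 wild-type and 4 L3mbtl3 knockout samples, per the labels' protocols. Among the tools listed in the submitters' processing notes are MACS2, the aligner Bowtie2 2.3.5.1, and deepTools 3.3.0, with the build GRCm38. Peak-calling settings and whether reads were offset for the transposase were not given in the sources used here. Each library has 1 broad peak list that the authors deposited, so the library is the replicate. Each deposited peak has a fold enrichment, a ratio to background, and a −log10 q; both are the list's own and served only to describe, rank or filter peaks within it. Positions are on GRCm38 and counted from 1. No read counts were used, so depth is unknown and no counting interval is given.

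Peaks overlapping by at least 1 bp were merged into 25623 regions. Gene spans came from RefSeq (GRCm38.p6), which gives no exons here, so exon or intron is not stated. Starts came from the promoter table for 17491 of 21883 genes; otherwise both span ends were used. Peaks per locus were compared by a two-sided exact permutation test over 35 splits and region or start calls by Fisher's exact test, with Benjamini-Hochberg adjustment over all loci, regions or starts (Python 3.11.15, scipy 1.17.1). The functions were tested on simulated data. Alternatives were other windows, thresholds, list lengths, merging rules, libraries left out and a replicate block. The 10 genes, the 73-gene list and the 8 marker lists were chosen with earlier results of these data known. All 10 genes are named, as are regions called in at least 4 libraries and, of the 73, up to 4 genes per direction with the largest difference and 4 with most peaks, ties going to the locus with more peaks and then by symbol; Map7d1, Mapre3 and Map6, tied but outside that rule, were added after their values were seen.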

Additional observations from a re-analysis of the deposited data

Results flagged for a closer look

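In knockout library 4, 4 values lay so far from those of the other 3 knockout libraries that the gap, as a share of the range of the 4, exceeded Dixon's 95% critical value. They were the sum over the 10 loci, at 31 peaks against 6 to 10, the Dclk2 locus, at 6 peaks against 0 to 1, and the Tubb3 and Stmn2 loci, at 1 peak each against 0. In all, 13 sets of values were examined. The usual rate of about 1 in 20 by chance does not apply to tied counts, and at Tubb3 and Stmn2, with values of 0, 0, 0 and 1, a lone peak exceeds the critical value by construction. Per 10000 listed peaks the sum of knockout library 4, at 17.9, was next to that of knockout library 3, at 17.8, and was not set apart. Knockout library 4 has the longest list, and its part in these values beyond that scaling was not tested.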

How the results depend on the processing

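Under every alternative run, 0 of the 10 loci, 0 of the 73 wider loci and 0 of the regions called in at least 2 libraries passed an adjusted p under 0.05; at an unadjusted p 1 wider locus passed with equal lists and 1 per 10000 listed peaks. As in the main comparison, the adjustment leaves a lone locus or region hardly any way to pass, so these adjusted counts decide nothing. Regions were not recomputed per 10000 listed peaks. Leaving out a wild-type or a knockout library allows no exact p below 0.0667 or 0.1, so those settings bear on sizes and directions alone. Over 160 combinations of gene and alternative, the direction was kept in 113, was lost to 0 in 28 and reversed in 19. The smallest exact p among them was 0.229, and every adjusted p was 1. Dcx, Tubb3, Mapt, Stmn1, Stmn2 and Gap43 reversed under none of them. No wild-type library had a peak at Tubb3, Stmn1 or Stmn2, and no knockout library had one at Mapt. Apart from the window of 100 kb on either side, no alternative could have reversed these loci, so their kept direction shows no stability. Tubb3, Mapt, Stmn1 and Stmn2 gave 10, 12, 15 and 11 of the 113 kept directions. Reversed differences were −0.333 (span alone) and −0.0833 (equal lists) at Map2, −0.0833 at Map1b with equal lists, and, per 10000 listed peaks, −0.858 at Dclk1, −0.595 at Dclk2 and −0.0335 at Map1b. Counted as called or not, Dclk1, Dclk2 and Map1b stood at −0.25. Leaving out single libraries moved Map2 to between −0.75 and 2.25, Dclk1 to between −1 and 1.67, Dclk2 to between −1 and 1 and Map1b to between −0.667 and 0.667. The ranges were 0 to 1 at Dcx, 0.333 to 1.67 at Gap43, −0.5 to 0 at Mapt, 0.333 to 0.667 at Stmn1 and 0 to 0.333 at Tubb3 and Stmn2. The summed difference lay between −2 and 6.33, lowest without knockout library 4. Same-numbered libraries had deviations correlated at −0.0259, 0.0613 and 0.0603 over loci. Differently numbered libraries ran from −0.124 to 0.095, so these values cannot tell whether the numbers pair libraries. In the replicate block, which uses numbers 1 to 3 and cannot reach p under 0.25, the summed difference was −2. Dclk1 was at −1 there, Dclk2 at −1, Map2 at −0.333 and Map1b at −0.667. A peak near a start, or near a span end for genes without a start in the table, was found for 4 genes. The number was 0 at −log10 q of at least 5, 2 with equal lists and 3 to 4 without single libraries. With both span ends for every gene, an alternative added after the data were seen, it was 6, which adds Dclk2 and Tubb3. Regions called in at least 2 libraries numbered 19, and 11 without knockout library 4, 4 with equal lists and 0 at −log10 q of at least 5. These settings test fewer peaks by construction. The unknown depth limits all comparisons.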
